A study of Mus musculus with 5 samples.

Results

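Condensins and type II topoisomerases are the enzymes that fold and untangle chromosomes, and 10 genes that encode them were followed by RNA-seq in cultured mouse neural stem cells (NSCs) and STO fibroblasts. The genes were chosen by name, as the shared core of the condensins (Smc2, Smc4), the subunits found only in condensin I (Ncapd2, Ncapg, Ncaph) or only in condensin II (Ncapd3, Ncapg2, Ncaph2), and the topoisomerases Top2a and Top2b. They were 10 of 24844 genes to which the deposited RefSeq transcripts were assigned. Expression was given by the authors as FPKM, fragments scaled to transcript length in kilobases and to the mapped fragments of the library, and the values of a gene's transcripts were added together.

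The NSCs were primary cells of the embryonic mouse cortex, grown for 5 to 8 passages as a monolayer on poly-L-ornithine and laminin in medium with EGF and bFGF, and gave 2 replicate libraries. STO cells are an established line of mouse SIM embryonic fibroblasts, grown in DMEM with serum past 30 passages, and gave 3 replicate libraries. All libraries carry the strain label C57BL/6, none was treated, and nothing in the labels says that replicates came from separate cultures or animals, so the p-values measure only the spread between these libraries. The study used both cell types beside germline stem cells to compare chromosome architecture. The comparison described here is that of STO cells with NSCs, which differ in tissue of origin, medium, passage and immortality together. Genetic background may differ as well, since STO cells are described as SIM fibroblasts despite the shared strain label.

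Condensins are ring-shaped complexes in which the ATPases SMC2 and SMC4 are closed by a kleisin subunit (NCAPH or NCAPH2) that carries a pair of HEAT-repeat subunits (NCAPD2 with NCAPG, or NCAPD3 with NCAPG2). They extrude loops of DNA and compact chromosomes in mitosis. Condensin II is in the nucleus throughout the cell cycle, while condensin I reaches the chromosomes after the nuclear envelope breaks down. Type II topoisomerases cut both strands of DNA, pass another duplex through the break and reseal it. TOP2A is made by dividing cells and is needed to separate sister chromatids, whereas TOP2B is also made by cells that no longer divide, neurons among them.

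The promoters of 4 of the genes are shown. Top2a and Top2b are paralogs of which one follows the cell cycle. Their differences between the cell types were alike, at 0.55 and 0.52 in log2(FPKM + 1). Ncapg was the member with the largest difference between the cell types, and Ncapd2 was lower where most others were higher. Each line gives the 250 bases before the annotated start on the strand of the gene, from the RefSeq table of GRCm38.p6, and each was found once in mm9, the build of the deposited files. The positions in mm9 are chr11:98885504-98885753 on the minus strand for Top2a, chr14:17197470-17197719 on the plus strand for Top2b, chr5:46060914-46061163 on the plus strand for Ncapg and chr6:125141605-125141854 on the minus strand for Ncapd2. Each stretch ends at the base next to the deposited locus. Capitals mark matches on either strand to CCAAT, the box bound by NF-Y, to TTTGAA or TTCGAA, the forms of the cell cycle genes homology region, and to the E2F-like words TTTGGCGC, TTTCCCGC and TTTGCCGC.
Top2a: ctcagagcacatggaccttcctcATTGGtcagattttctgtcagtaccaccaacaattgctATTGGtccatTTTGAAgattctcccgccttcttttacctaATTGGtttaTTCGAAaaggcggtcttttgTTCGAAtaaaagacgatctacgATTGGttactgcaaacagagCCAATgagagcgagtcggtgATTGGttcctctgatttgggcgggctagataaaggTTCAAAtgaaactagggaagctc
Top2b: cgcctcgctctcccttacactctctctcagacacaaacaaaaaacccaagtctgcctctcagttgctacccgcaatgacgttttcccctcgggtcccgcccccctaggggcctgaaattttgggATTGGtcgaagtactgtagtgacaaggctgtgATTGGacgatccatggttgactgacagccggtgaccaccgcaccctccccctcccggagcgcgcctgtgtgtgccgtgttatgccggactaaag
Ncapg: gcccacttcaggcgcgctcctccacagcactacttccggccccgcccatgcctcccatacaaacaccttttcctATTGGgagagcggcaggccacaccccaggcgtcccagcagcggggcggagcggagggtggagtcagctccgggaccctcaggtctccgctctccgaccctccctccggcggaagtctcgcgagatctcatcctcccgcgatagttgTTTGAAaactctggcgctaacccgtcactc
Ncapd2: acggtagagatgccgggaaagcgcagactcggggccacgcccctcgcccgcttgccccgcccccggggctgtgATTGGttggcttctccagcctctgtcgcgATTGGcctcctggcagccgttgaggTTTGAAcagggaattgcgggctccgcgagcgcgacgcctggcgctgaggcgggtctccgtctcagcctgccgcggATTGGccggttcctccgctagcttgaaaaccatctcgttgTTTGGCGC

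Words were counted from 250 bases before to 50 bases after each start, where no marked words share a base, and TTCGAA, which reads the same on both strands, was counted once. Top2a held 6 CCAAT, 2 TTTGAA and 2 TTCGAA. Top2b held 2 CCAAT and none of the other words. Among all 32851 promoters of the table, 37.4% held CCAAT, 0.271% held it at least 5 times, 17.9% held TTTGAA and 1.56% held TTCGAA. Ncapd2 held 3 CCAAT, a number reached by 3.37% of promoters, with 1 TTTGAA and 1 TTTGGCGC. Ncapg held 1 CCAAT, 1 TTTGAA and 1 TTTCCCGC, the last of these after the start and so not shown. An E2F-like word was found in 1.99% of all promoters, TTTGGCGC in 0.514%, TTTCCCGC in 1.07% and TTTGCCGC in 0.441%. Of the other members, Smc2 held 1 CCAAT and 2 TTTGAA, Ncapg2 held 1 TTTGAA and 2 TTTCCCGC, Ncaph2 held 1 TTCGAA, and Ncaph and the start of Ncapd3 nearest to its deposited locus held none. The table matched 9 of the 10 members. These matches describe letters in a window and not binding.

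All 10 genes were expressed in both cell types. Of these, 9 passed the test between STO cells and NSCs (limma on log2(FPKM + 1), Benjamini-Hochberg adjusted p under 0.05), 7 with higher and 2 with lower values in STO cells. Most genes differ between these cell types, however: of 12278 genes tested, 85.7% passed the same test, 41.9% as higher and 43.7% as lower in STO cells. The median difference was 0.53 in log2(FPKM + 1) over the members and -0.02 over all genes tested. In bulk RNA, a larger share of dividing cells and more RNA per cell cannot be told apart.

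**Figure D1:**
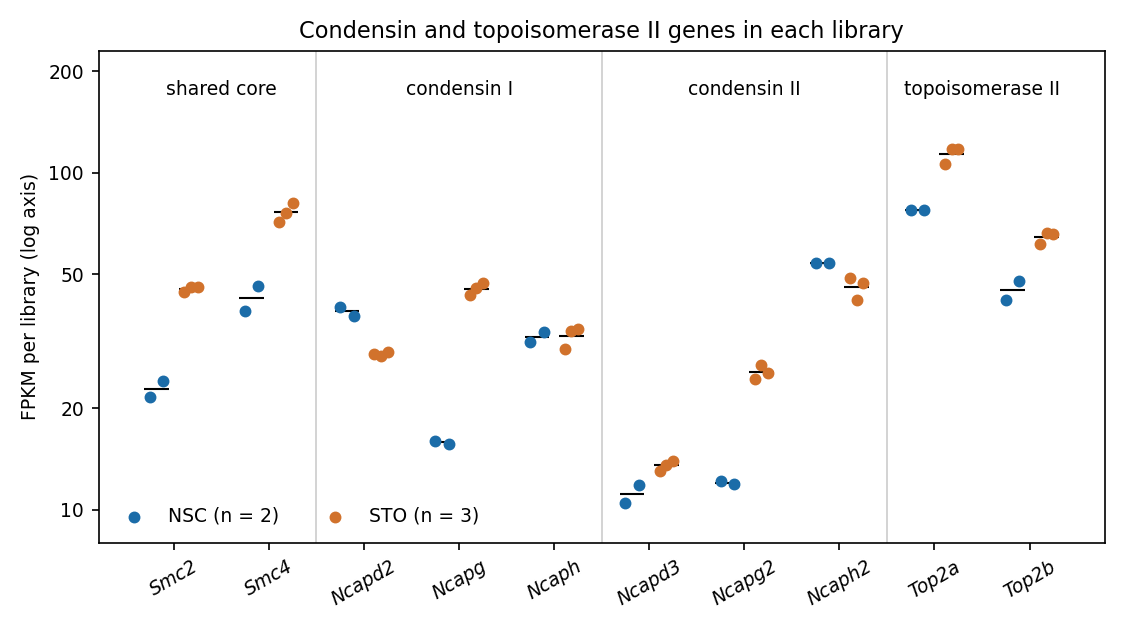
FPKM of the 10 genes (log axis) in the 2 NSC libraries (blue) and 3 STO libraries (orange), with each group mean as a black line, ordered by complex. The points of the cell types are mixed for Ncaph. The mean of Ncapg is 15.9 in NSCs and 45.2 in STO cells, that of Ncapd2 38.8 and 28.9.

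Both core ATPases were higher in STO cells. Smc2 (chr4:52452093-52501237, plus strand, mm9), which pairs with SMC4 in condensin I and II alike, had an FPKM of 21.7 and 24.1 in NSC replicates 1 and 2 and of 44.4, 45.7 and 45.8 in STO replicates 1, 2 and 3. Every STO library lay above both NSC libraries, and the STO mean of 45.3 ± 0.780 (SD, n = 3) was 1.98 times the NSC mean of 22.9 ± 1.72 (SD, n = 2), a difference of 0.96 ± 0.06 (SE) in log2(FPKM + 1) with an adjusted p of 1.19e-05 by limma. Smc4 (chr3:68808660-68838546, plus strand), its partner, had an FPKM of 39.0 and 46.2 in the NSC replicates and of 71.2, 76.0 and 81.5 in the STO replicates. The groups were again separate, and the difference was 0.83 ± 0.09 (SE; adjusted p = 0.000199 by limma), or 1.79 times.

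Within a library, Smc2 stood at 0.555 and 0.521 times Smc4 in NSCs and at 0.623, 0.601 and 0.562 times in STO cells. All STO ratios lay above the NSC ratios, but the difference of 0.15 on the log2 scale had p = 0.2 in a two-sided exact permutation test over libraries, which is the smallest value that 2 against 3 libraries can give. When only the highest transcript of each gene was used this difference was -0.04, as Smc2 has 2 transcripts in the files. The transcript with the higher value carried 77.4% and 82.0% of Smc2 FPKM in NSCs and 69.8%, 70.9% and 70.1% in STO cells, and the other was at 4.90 and 4.34 in NSCs and at 13.4, 13.3 and 13.7 in STO cells. How fragments are split between overlapping transcripts is an estimate of Cufflinks, and no test was run on single transcripts. The locus of Smc4 also hosts Mir15b and Mir16-2, which this mRNA assay does not measure.

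The 3 subunits particular to condensin I went in different directions. Ncapg (chr5:46061164-46091786, plus strand), a HEAT-repeat subunit, had the largest difference of the 10 genes, with an FPKM of 16.1 and 15.7 in the NSC replicates and of 43.3, 45.5 and 46.9 in the STO replicates. The lowest STO library was far above the highest NSC library, and the difference was 1.45 ± 0.05 (SE; adjusted p = 9.35e-07 by limma), or 2.85 times. An annotated exon of Lcorl on the opposite strand overlaps Ncapg, and Lcorl, a transcription cofactor gene, had an FPKM of 7.32 and 7.79 in NSCs and was listed at 0 in all 3 STO libraries. Whether the counting used strand is not given in the sources used here, and the part of this overlap in the value of Ncapg was not tested.

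Ncapd2 (chr6:125118025-125141604, minus strand), the other HEAT-repeat subunit of condensin I, was lower in STO cells. Its FPKM was 39.9 and 37.7 in the NSC replicates and 28.9, 28.6 and 29.3 in the STO replicates, so that every STO library lay below both NSC libraries. The difference was -0.41 ± 0.05 (SE; adjusted p = 0.000339 by limma), or 0.746 times, and it kept its direction and passed the threshold in 13 of 13 alternatives. Ncaph (chr2:126929546-126959690, minus strand), the kleisin of condensin I, had an FPKM of 31.5 and 33.6 in NSCs and of 30.1, 33.8 and 34.3 in STO cells. These ranges overlap, the means were 32.6 ± 1.54 (SD, n = 2) and 32.7 ± 2.298 (SD, n = 3), and the 95% interval of the difference ran from -0.17 to 0.19 in log2(FPKM + 1) (adjusted p = 0.941 by limma). With each library scaled to the same FPKM sum the difference was 0.175 (adjusted p = 0.067 by limma).

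In condensin II, 2 subunits were higher and 1 lower in STO cells. Ncapg2 (chr12:117643875-117702004, plus strand), the counterpart of Ncapg, had an FPKM of 12.1 and 11.9 in the NSC replicates and of 24.4, 26.8 and 25.5 in the STO replicates. The groups did not overlap, and the difference of 1.03 ± 0.06 (SE; adjusted p = 6.13e-06 by limma) was 2.13 times. Ncapg and Ncapg2 were the 2 of 10 members called higher in STO cells by at least 1 on this scale. Among all genes tested, 17.1% were called higher by at least 1, a share close to that of the members. Ncapg2 shares exonic sequence with D430020J02Rik on the opposite strand, which was at 2.85 and 2.41 in NSCs and at 8.77, 8.78 and 9.45 in STO cells, and its part in the value of Ncapg2 was not tested.

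Ncapd3 (chr9:26837760-26902900, plus strand), the HEAT-repeat counterpart of Ncapd2, was higher in STO cells by a small margin. Its FPKM was 10.5 and 11.9 in the NSC replicates and 13.03, 13.6 and 14.0 in the STO replicates, separate but close, with a difference of 0.26 ± 0.07 (SE; adjusted p = 0.0122 by limma), or 1.21 times. Without NSC replicate 1 the difference was 0.18 and no longer passed (adjusted p = 0.0664 by limma). Ncaph2 (chr15:89186150-89203281, plus strand), the kleisin of condensin II, had an FPKM of 54.1 and 54.1 in NSCs and of 48.6, 42.1 and 47.1 in STO cells. All STO libraries were below both NSC libraries, and the difference was -0.23 ± 0.07 (SE; adjusted p = 0.0223 by limma), or 0.849 times.

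The call for Ncaph2 was lost in 4 of 14 alternatives. It did not pass when each library was scaled to the same FPKM sum (-0.06, adjusted p = 0.377 by limma), without NSC replicate 1 (-0.23, adjusted p = 0.123) or without NSC replicate 2 (-0.23, adjusted p = 0.125). Ncaph2 has 4 transcripts in the files, 1 of them non-coding with an FPKM of 13.8 and 14.5 in NSCs and of 11.1, 12.1 and 11.9 in STO cells, and 1 listed at 0 in every library. Without the non-coding transcript, an alternative chosen after seeing the data, the difference was -0.22 (adjusted p = 0.0713 by limma). Sco2, which overlaps Ncaph2 on the opposite strand, was listed at 0 in all 5 libraries. A listed 0 can be a failed estimate, and the part of this overlap in the value of Ncaph2 was not tested.

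**Figure D2:**
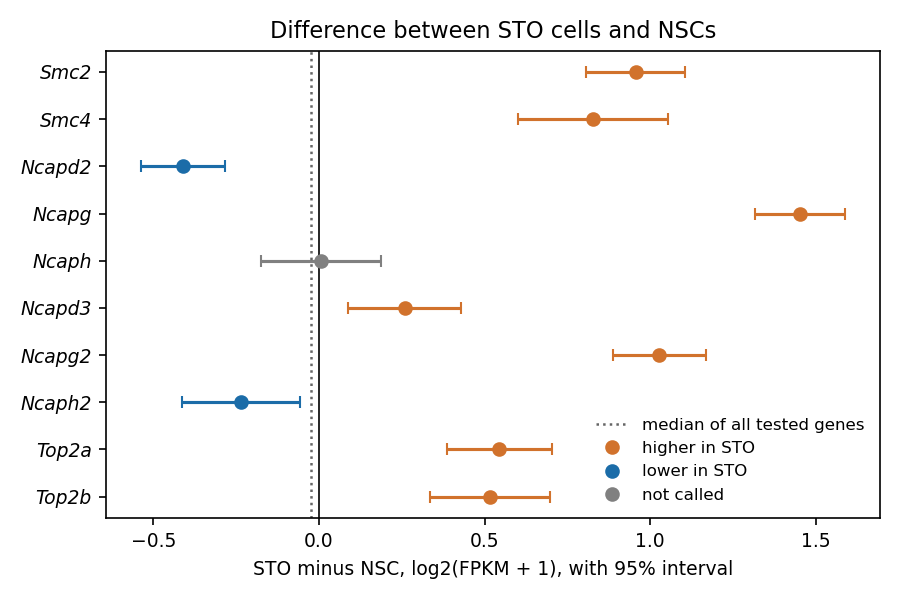
Difference between STO cells and NSCs in log2(FPKM + 1) for each of the 10 genes, with 95% intervals from limma. The intervals of 7 genes lie above 0, those of Ncapd2 and Ncaph2 lie below 0, that of Ncaph spans 0, and the dotted line marks the median of all genes tested at -0.02.

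Of the summed FPKM of the subunits particular to each complex, the NCAPG-type subunit took a higher share in STO cells. These are shares of RNA, and the make-up of the protein complexes was not measured. Ncapg made up 18.4% and 18.1% of the FPKM of the 3 condensin I subunits in NSCs and 42.3%, 42.2% and 42.4% in STO cells. Ncapg2 made up 15.8% and 15.3% of the condensin II subunits in NSCs and 28.4%, 32.5% and 29.5% in STO cells. The ratio of Ncapg to Ncapd2 was 0.402 and 0.417 in NSCs and 1.498, 1.59 and 1.60 in STO cells. The FPKM order of these partners was thus opposite in the cell types.

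The ratio of Ncapg to Ncaph was 0.511 and 0.467 in NSCs and 1.44, 1.34 and 1.37 in STO cells. In condensin II, Ncapg2 stood at 0.225 and 0.220 times Ncaph2 in NSCs and at 0.503, 0.638 and 0.542 times in STO cells. For both complexes the FPKM of the NCAPG-type subunit was thus higher relative to that of its kleisin in every STO library. The ratio of Ncapg to Ncapg2 was 1.32 and 1.32 in NSCs and 1.77, 1.70 and 1.84 in STO cells. Ncapd2 stood at 3.82 and 3.17 times Ncapd3 in NSCs and at 2.22, 2.10 and 2.10 times in STO cells. Ncaph stood at 0.582 and 0.622 times Ncaph2 in NSCs and at 0.619, 0.804 and 0.728 times in STO cells. This last ratio overlapped between the cell types and the other 5 given here did not. They were chosen after their values were seen and are given as descriptions, with no test.

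The mean log2 FPKM of the condensin II subunits minus that of the condensin I subunits was -0.52 and -0.46 in NSCs and -0.43, -0.51 and -0.50 in STO cells. The values overlap, and the difference of 0.01 had p = 0.8 in the two-sided exact permutation test. Condensin II held 46.7% and 47.2% of the summed FPKM of the 6 subunits in NSCs and 45.7%, 43.3% and 43.9% in STO cells. This share, which gives more weight to abundant subunits than the mean of logs does, was lower in every STO library. It was not among the planned comparisons and was not tested. Of the condensin I subunits, only Ncapg was called higher in STO cells. The sum for condensin I was 87.5 and 87.1 in NSCs and 102, 108 and 111 in STO cells, and that for condensin II was 76.7 and 77.9 in NSCs and 86.1, 82.5 and 86.7 in STO cells.

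**Figure D3:**
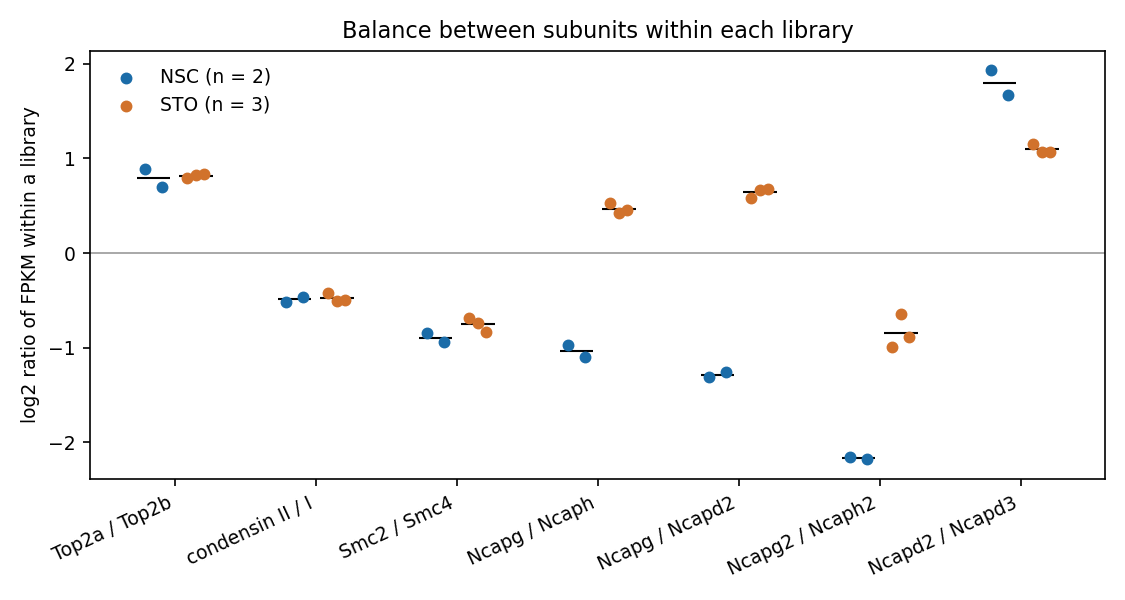
Log2 ratio of FPKM within each library for 7 pairs, with NSC libraries in blue (n = 2), STO libraries in orange (n = 3) and group means as black lines; the pair of complexes is the difference of mean log2 FPKM over their 3 subunits. Top2a / Top2b and condensin II / I overlap between the cell types, while Ncapg / Ncaph, Ncapg / Ncapd2 and Ncapg2 / Ncaph2 are higher in every STO library. These last pairs and Ncapd2 / Ncapd3 were chosen after their values were seen.

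Both type II topoisomerases were higher in STO cells. Top2a (chr11:98854261-98885503, minus strand), the isoform of dividing cells whose promoter is shown above, had an FPKM of 77.6 and 77.6 in the NSC replicates and of 106, 118 and 118 in the STO replicates. The groups were separate, and the STO mean of 114 ± 6.62 (SD, n = 3) was 1.47 times the NSC mean of 77.6 ± 0.0332 (SD, n = 2), a difference of 0.55 ± 0.07 (SE; adjusted p = 0.000273 by limma). Top2b (chr14:17197720-17263301, plus strand), the isoform also used outside division, had an FPKM of 42.0 and 47.7 in NSCs and of 61.3, 66.4 and 66.0 in STO cells. The groups did not overlap, and the difference was 0.52 ± 0.07 (SE; adjusted p = 0.000669 by limma), or 1.44 times.

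Top2a exceeded Top2b in every library. The ratio was 1.85 and 1.62 in NSCs and 1.73, 1.77 and 1.78 in STO cells, so all 3 STO libraries fell between the NSC libraries. The difference of the log2 ratios was 0.02 (p = 0.8, two-sided exact permutation test) and ran from -0.07 to 0.12 when single libraries were left out. Top2a made up 61.9% to 64.9% of the sum in NSCs and 63.4% to 64.1% in STO cells.

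FPKM is a value per length, so the members can also be ordered within a cell type. In NSCs the order by mean was Top2a, Ncaph2, Top2b, Smc4, Ncapd2, Ncaph, Smc2, Ncapg, Ncapg2 and Ncapd3, in which the libraries of Top2b and Smc4 and of Smc4 and Ncapd2 overlapped. In STO cells it was Top2a, Smc4, Top2b, Ncaph2, Smc2, Ncapg, Ncaph, Ncapd2, Ncapg2 and Ncapd3, in which Ncaph2 and Smc2 and then Smc2 and Ncapg overlapped. All other neighbours in these orders were separate. Among the 12278 genes tested, Top2a was at percentile 92.0 in NSCs and 95.5 in STO cells, while Ncapd3 was at 50.4 and 55.0. Ncapg moved most in this rank, from percentile 60.4 to 85.7, and Ncaph hardly at all, from 79.1 to 79.3.

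The genes whose levels over the 5 libraries were nearest to those of Top2a, by Euclidean distance in log2(FPKM + 1), were Ipo5 (an importin; distance 0.12), Sdcbp (the adaptor syntenin; 0.14) and Ube2m (a NEDD8-conjugating enzyme; 0.16). Ipo5 had an FPKM of 80.9 and 80.3 in NSCs and of 111, 114 and 114 in STO cells. Nearest to Top2b were Tcea1 (a transcription elongation factor; 0.04), Cyb5b (a mitochondrial cytochrome b5; 0.13) and Myh10 (a non-muscle myosin heavy chain; 0.14). Tcea1 had an FPKM of 42.7 and 48.0 in NSCs and of 61.5, 66.9 and 64.3 in STO cells. The distance measures level as well as pattern. None of these 6 belongs to the S phase or mitosis lists below. Those lists hold only 8 and 12 of the 12278 genes tested, so this absence says nothing about the cell cycle.

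The other genes of the same machinery were summarised as lists. Of the other SMC family genes, which build cohesin, the SMC5/6 complex and a silencing factor of the inactive X, 5 of 6 were tested, and all 5 were higher in STO cells with a median difference of 0.88 in log2(FPKM + 1). Smc6 was at 11.4 and 12.9 FPKM in NSCs and at 31.0, 34.2 and 34.7 in STO cells (difference 1.38, adjusted p = 5.62e-06 by limma). Smc3, the cohesin ATPase, was at 25.7 and 28.6 in NSCs and at 58.4, 61.4 and 63.5 in STO cells (1.14, adjusted p = 8.17e-06). Smchd1 differed by 0.88 and Smc1a, the other cohesin ATPase and the least different of the list, by 0.50. Smc1b, the meiotic form, was below the filter in both cell types.

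Of 15 regulators and chromosome partners of condensin, 10 were higher and 3 lower in STO cells, with a median of 0.37. Kmt5a, the methyltransferase for histone H4 lysine 20 whose mark condensin II binds, was at 43.2 and 48.4 FPKM in NSCs and at 112, 119 and 115 in STO cells (difference 1.31, adjusted p = 3.74e-06 by limma). Mcph1, an inhibitor of condensin II, was at 3.22 and 3.11 in NSCs and at 9.48, 9.47 and 9.06 in STO cells (1.31, adjusted p = 1.21e-06). Mki67, the coat protein of mitotic chromosomes, differed by 0.69. Cdk1, the kinase that phosphorylates condensins in mitosis, overlapped between the cell types at 50.5 and 48.4 in NSCs and 53.5, 49.5 and 54.6 in STO cells (0.08, adjusted p = 0.240).

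Of 9 other topoisomerases and genes that act on topoisomerase II or its lesions, 8 were tested, and 5 were higher and 2 lower in STO cells, with a median of 0.29. Top1mt, the mitochondrial topoisomerase, was at 2.29 and 2.39 FPKM in NSCs and at 9.84, 10.4 and 10.9 in STO cells (difference 1.77, adjusted p = 6.11e-07 by limma). Top1, the nuclear type I enzyme, went the other way, from 86.6 and 91.5 to 50.6, 54.8 and 54.2 (-0.73, adjusted p = 4.16e-05), so that Top1 exceeded Top2a in NSCs and was below it in STO cells. Ercc6l, the PICH translocase that works with topoisomerase II on anaphase bridges, differed by 1.07. Tdp2, which removes topoisomerase II from broken ends, overlapped between the cell types and differed by 0.06 (adjusted p = 0.428). Spo11 was below the filter. With only the highest transcript of each gene, 3 of this list were higher and 2 lower, and the median was 0.03.

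Markers of dividing cells did not move in a single direction. In the list of 12 mitosis genes, STO cells had 7 at higher and 4 at lower levels, with a median of 0.21. Ube2c, a ubiquitin-conjugating enzyme of mitotic exit, was at 224 and 241 FPKM in NSCs and at 99.8, 91.7 and 98.4 in STO cells (difference -1.26, adjusted p = 4.38e-06 by limma). The kinetochore motor Cenpe differed by 0.74, the checkpoint kinase Bub1 by 0.74, and Hmmr by 0.07 with overlapping libraries. Of 8 S phase genes, 4 were higher and 3 lower with a median of 0.09. Tyms, thymidylate synthase, differed by 1.47, the sliding clamp Pcna by -0.78, the licensing factor Cdc6 by 0.72, and the helicase subunit Mcm2 by 0.01 with overlapping libraries. The S phase genes called higher were 2 without NSC replicate 1 and 2 with the replicate number as a block. Under the other scalings (quantile, same FPKM sum, median ratio) the members had 7 higher and 1 to 2 lower, the regulators 10 to 11 and 1 to 4, the mitosis genes 6 to 8 and 3 to 4, and the S phase genes 3 to 5 and 2 to 3. With libraries scaled to the same FPKM sum, which moved the median of all genes from -0.02 to 0.13, the median was 0.70 for the members, 0.38 for the mitosis genes and 0.26 for the S phase genes.

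Set against the mitosis list in the same library, the mean log2(FPKM + 1) of the 10 members was -0.12 and -0.21 in NSCs and 0.26, 0.32 and 0.28 in STO cells. The values did not overlap, and the difference of 0.45 had p = 0.2, the smallest value possible in this exact permutation test. It ranged from 0.41 to 0.50 when single libraries were left out. The part of the dividing share of each culture in the values of the members was not tested.

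**Figure D4:**
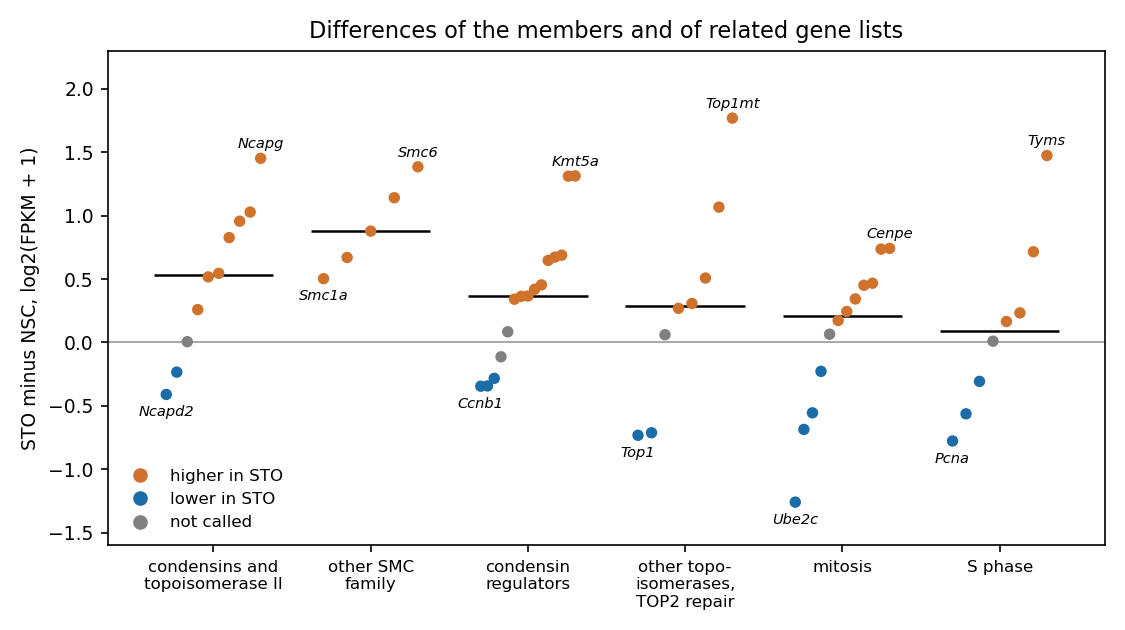
Difference between STO cells and NSCs in log2(FPKM + 1) for each tested gene of the 10 members and of 5 related lists, coloured by whether it passed the test as higher (orange), as lower (blue) or not (grey), with list medians as black lines. All 5 other SMC genes lie above 0, whereas each of the remaining lists has genes on both sides of 0.

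Gene length moved with the differences over all genes. When the 86.7% of tested genes with an annotated length were cut by length into 4 groups of like size, the median difference was -0.27 among those of 39 to 2024 bases, 0.02 at 2025 to 3130, 0.10 at 3132 to 4567 and 0.14 at 4568 to 28204. Of the members, 5 (Smc2, Ncapd3, Ncapg2, Top2a and Top2b) were in the longest group, 4 (Smc4, Ncapd2, Ncapg and Ncaph2) in the next and Ncaph in the one below. All 5 members of the longest group lay above its median. In the next group Ncapg and Smc4 lay above the median and Ncapd2 and Ncaph2 below it, and the difference of Ncaph was 0.01 beside a median of 0.02. The part of length in the members' values was not tested.

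The files give no read counts. Fragments were estimated from the confidence intervals deposited beside the values, taking the distance to the upper bound as 2 SDs. The libraries held the equivalent of 15223341 (STO replicate 1) to 22271895 (NSC replicate 2) fragments. The relative error these imply for a member in 1 library was 0.697% (Top2a) to 3.12% (Ncapg). Between NSC replicate 1 and STO replicate 1, implied fragments of Top2a went from 12343 to 12105 and its FPKM from 77.6 to 106. Those of Ncapg went from 1026 to 1413, and its FPKM from 16.1 to 43.3. Fragments and FPKM did not scale alike for both genes, so the bounds are not counting error alone. Replicates could differ by more than these errors, as Smc4 did in NSCs with 42.6 ± 5.12 (SD, n = 2). The 7 NSC markers, Nes, Sox2 and Pax6 among them, summed to 3825 to 4041 FPKM in NSCs and to at most 0.0724 in STO cells, where Sox1, Sox2, Pax6, Olig2 and Fabp7 were at 0. The 7 fibroblast markers summed to 1409 to 1516 in STO cells and to at most 5.42 in NSCs. Neuron markers summed to 119.5 in NSCs (5 of 6 with a mean of at least 1) and to 12.3 to 12.9 in STO cells (2 of 6). Map2 alone had a mean of 101 in NSCs, while Rbfox3 was at 0.515, Syt1 at 1.25, Snap25 at 3.12 and Dcx at 4.71, and Tubb3 was at 8.69 in NSCs and 8.30 in STO cells. Astrocyte markers summed to 64.5 in NSCs and to at most 0.219 in STO cells, and oligodendrocyte markers to 114 to 117 and at most 1.14. Markers of microglia and endothelium stayed at 0.377 or less in all libraries. The part of these other cell types in the members' values was not tested.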

How the data were processed

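RNA of NSCs (2 libraries) and STO cells (3 libraries) was prepared by the submitters with a stranded mRNA kit and sequenced as paired ends. The authors deposited FPKM values with confidence bounds for 40201 RefSeq transcript rows per library, made with HISAT2 (given as version 4.8.2) and Cufflinks 2.2.1 on mm9 according to the submitters' processing notes. The strand setting of the quantification is not given in the sources used here, depth is already divided out of FPKM, and an FPKM of 0 is a listed value that can be a failed estimate. All 75 rows of the 15 member transcripts had the status OK, and 2 of these transcripts were at 0 in every library.

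Symbols were matched through RefSeq identifiers with a table made for GRCm38.p6, used for names only (99.4% of 39584 identifiers), and FPKM values were summed per symbol. Coordinates are those of the files in mm9. Promoter sequences are from the RefSeq table of GRCm38.p6 and were located in mm9 by exact match. Exon overlaps and gene lengths were read from a GENCODE annotation of the same build.

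Groups were taken from the labels. The cell types were compared by a linear model per gene (limma 3.58.1 under R 4.3.3, functions lmFit and eBayes, variance trend, two-sided) on log2(FPKM + 1) for every gene whose mean FPKM reached 1 in either of them, with Benjamini-Hochberg adjustment over all of them and a threshold of 0.05. Differences on this scale understate the change of low genes, while the stated folds are ratios of mean FPKM. Ratios within a library were compared by exact permutation over libraries. The script was tested on simulated data. The remaining steps ran under Python 3.11.15 with pandas 2.3.3, numpy 2.4.6, matplotlib 3.10.9 and scipy 1.17.1.

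Named genes were all members, the 3 genes of each list with the largest absolute difference and the 1 with the smallest, and the 3 genes nearest to Top2a and to Top2b. Genes that overlap a member's exons were named beside it. The members and lists were chosen with earlier results of these data known. Alternatives changed the pseudocount (0.1), the filter, the scaling, the trend, the transcript used, the replicate block and the libraries included.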

Additional observations from a re-analysis of the deposited data

How the results depend on the processing

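Of 131 values of single members under alternative settings, 121 kept their direction and their side of the threshold, 5 kept the direction but no longer passed (1 for Ncapd3 and 4 for Ncaph2, given above), and 5 changed sign, all for Ncaph, which did not pass under any setting. The difference of Ncaph was -0.035 with median-ratio scaling, -0.028 with a replicate block, 0.175 with the same FPKM sum, and -0.041 to 0.064 when single libraries were left out. With a minimum absolute log2 difference of 1, 2 members were higher and 0 lower, and 4712 genes were called in place of 10517. Leaving out single libraries gave 6 to 7 higher and 1 to 2 lower members, and 9722 to 10251 genes called; the lower call lost was that of Ncaph2 without either NSC replicate. There was 1 lower member when libraries were scaled to the same FPKM sum, which moved the median of all genes by 0.16, and 1 without the non-coding transcript of Ncaph2, an alternative chosen after seeing the data. The Top2a to Top2b difference ran from -0.069 (without NSC replicate 2) to 0.117 and that of condensin II minus condensin I from -0.017 (without NSC replicate 1) to 0.042 when single libraries were left out. With the highest transcript of each gene the latter was -0.016 and that of Smc2 to Smc4 was -0.036. Where not stated, the cause was not tested. Replicates 1 and 2 occur in both cell types, and deviations from the group means correlated by 0.00286 and 0.0645 for equal numbers and by -0.0645 to 0.0588 for unequal ones, so the numbers were not shown to pair the libraries. The replicate block left 7 members higher and 2 lower, with 10238 genes called.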
